A study of Mus musculus with 6 samples.

Results

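The nuclear genes of oxidative phosphorylation were taken by symbol from single-cell RNA counts of mouse spinal cord: the Nduf families a, b, c, s and v, Sdha to Sdhd, the Uqcr genes, Cyc1, Cycs, the Cox4 to Cox8 genes and the Atp5 genes. This gave 94 genes, each listed for all 6 libraries, of the 17042 genes listed for every library and the 19777 listed for any. Complex I (NADH dehydrogenase) contributed 45 of them, complex II (succinate dehydrogenase) 4, complex III (the cytochrome bc1 complex) 9, the electron carrier cytochrome c 1, complex IV (cytochrome c oxidase) 17 and complex V (ATP synthase) 18. Of the complex I genes, 7 encode the nuclear catalytic core, 29 accessory subunits and 7 assembly factors; Ndufa4, named for complex I, encodes a protein that binds complex IV, and Ndufa4l2 is its paralogue. The symbols also brought in Atp5s and Atp5sl, which encode no subunit of the mature ATP synthase, and Atp5l-ps1, a pseudogene by its name.

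Complexes I to IV pass electrons from NADH and succinate to oxygen by way of coenzyme Q and cytochrome c, and the protons pumped on the way return through complex V, which makes ATP. Most subunits are encoded in the nucleus, and the mitochondrial genome supplies a few central ones that are not among these genes. Several subunits of complex IV come in tissue isoforms: heart and skeletal muscle use Cox6a2, Cox7a1 and Cox8b where most tissues use Cox6a1, Cox7a2 and Cox8a. The c-ring of complex V is made of 1 protein that Atp5g1, Atp5g2 and Atp5g3 all encode, each with its own import signal.

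The study profiled spinal cords by Drop-seq, a droplet method that gives each cell's RNA a barcode and each molecule a unique molecular identifier (UMI). The 3 groups of 2 libraries were wild-type mice given vehicle (WT-Veh), mice of genotype SOD1-G93A given vehicle (SOD1-Veh) and SOD1-G93A mice given Necrostatin-1s, which blocks the kinase RIPK1 (SOD1-Nec). SOD1-G93A mice carry a mutant human superoxide dismutase transgene and are a model of amyotrophic lateral sclerosis; the labels used here give no age, sex or dose, and do not say whether libraries of a group came from separate animals. P-values therefore measure the spread between these libraries, which may be technical.

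Library totals ran from 1508618 to 1767205 UMIs. Barcodes were retained if they had 200 or more genes and no more than 20% mitochondrial UMIs, 395 to 791 per library after removal of 29 predicted doublets and 3331 in all; pairs of libraries shared 4 to 9 barcodes. Of 16 clusters, 15 could be named from marker genes: they included microglia, astrocytes, oligodendrocytes, neurons, ependymal and endothelial cells of the cord, and erythroid cells, neutrophils, monocytes and B cells; each name stands for a marker-like class. A cluster of 63 cells carried all 10 skeletal muscle markers; 16 of its cells came from SOD1-Veh 1, 47 from SOD1-Veh 2 and 0 from the other 4 libraries. Muscle is no part of the labelled tissue, so results over all cells are given with and without this cluster. Neuron-like cells came to 33 and 164 (WT-Veh 1 and 2), 13 and 6 (SOD1-Veh) and 25 and 9 (SOD1-Nec).

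The promoters of 5 complex IV isoforms are shown because the results turn on the muscle isoforms and their ubiquitous partners. The muscle isoform Cox6a2 is not among the 5. Each sequence is the 250 bases before the gene's start on its own strand, from RefSeq on build GRCm38.p6. Capitals mark matches, on either strand, to the NRF1 motif GCGCATGC, the ETS motif CCGGAAG and the E-box CAGCTG bound by myogenic factors. The string CTANNNNTAG, a loose form of the MEF2 motif with any base at N, was also searched.
Cox8b, chr7:140900447-140900696, minus strand: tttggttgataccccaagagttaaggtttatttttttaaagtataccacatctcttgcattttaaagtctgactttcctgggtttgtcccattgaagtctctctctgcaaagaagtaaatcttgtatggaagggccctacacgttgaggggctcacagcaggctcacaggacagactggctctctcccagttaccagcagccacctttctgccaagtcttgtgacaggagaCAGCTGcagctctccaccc
Cox7a1, chr7:30183921-30184170, plus strand: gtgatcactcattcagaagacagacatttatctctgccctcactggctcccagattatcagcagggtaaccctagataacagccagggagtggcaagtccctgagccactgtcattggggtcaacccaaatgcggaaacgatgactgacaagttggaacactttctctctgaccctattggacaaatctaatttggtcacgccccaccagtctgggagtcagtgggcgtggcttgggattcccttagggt
Cox6a1, chr5:115348959-115349208, minus strand: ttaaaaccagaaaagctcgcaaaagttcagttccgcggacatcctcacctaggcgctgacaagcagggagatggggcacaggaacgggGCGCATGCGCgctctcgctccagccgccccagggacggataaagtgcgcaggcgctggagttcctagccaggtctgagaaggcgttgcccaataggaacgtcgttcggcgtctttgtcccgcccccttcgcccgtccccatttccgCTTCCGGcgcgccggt
Cox7a2, chr9:79759854-79760103, minus strand: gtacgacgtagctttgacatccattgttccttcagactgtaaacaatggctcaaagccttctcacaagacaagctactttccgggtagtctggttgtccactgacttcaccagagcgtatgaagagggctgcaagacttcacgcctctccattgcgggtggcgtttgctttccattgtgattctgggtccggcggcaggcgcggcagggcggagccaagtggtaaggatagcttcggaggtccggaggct
Cox8a, chr19:7217617-7217866, minus strand: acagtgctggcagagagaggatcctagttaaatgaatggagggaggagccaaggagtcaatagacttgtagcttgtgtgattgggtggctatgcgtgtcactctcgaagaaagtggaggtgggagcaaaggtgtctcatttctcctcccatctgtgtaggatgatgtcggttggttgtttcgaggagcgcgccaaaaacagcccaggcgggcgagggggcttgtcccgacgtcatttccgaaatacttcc
In these windows the muscle isoform Cox8b held 1 E-box and Cox7a1 no match. The ubiquitous Cox6a1 held 2 NRF1 matches, which overlap within the run GCGCATGCGC, and 1 ETS match, while Cox7a2 and Cox8a held none. None of the 5 held the loose MEF2 string, which stood in 1 of the 13 windows of complex IV genes. Promoters were matched for 77 of the 94 genes, 74 by symbol and 3 by synonym, which gave 83 windows. The NRF1 motif stood in 12.05% of these and in 2.256% of all 32851 windows in the RefSeq table, and the ETS motif in 15.66% against 6.907%. Cycs, which encodes cytochrome c, held the NRF1 motif in its only window. The E-box stood in 7.229% of the members' windows against 13% of all, and the loose MEF2 string in 1.205% against 3.202%. A match describes letters in a window, not binding.

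RNA of the 94 genes took its largest share in the muscle cells: 9.08% of UMIs from nuclear genes in SOD1-Veh 1 and 7.92% of those in SOD1-Veh 2. Among the classes with at least 20 cells in every library, astrocytes stood highest at 3.42% ± 0.360 (SD, n = 6 libraries), followed by monocytes at 2.67% ± 0.271 and B cells at 2.36% ± 0.220. Erythroid cells (1.54% ± 0.455), microglia (1.47% ± 0.203) and neutrophils (1.45% ± 0.135) came last. Each of the first 3 classes lay above the next in 6 of 6 libraries, whereas erythroid cells lay above microglia in 4 and microglia above neutrophils in 2, so the last 3 did not differ beyond their spread. The place of erythroid cells depends on haemoglobin: with its UMIs left out of every class they stood at 3.07% ± 0.361, above monocytes (2.72% ± 0.286) in 6 of 6 libraries and under astrocytes (3.64% ± 0.316) in 5. These class levels are a description, since classes were defined from the same cells, though only 5 of the 94 genes were among the 2000 used for clustering. The astrocyte rank has further limits. Mitochondrial UMIs made up 8.36% to 10.7% of the UMIs of this class by library. It held 218 cells, but 37 under a limit of 10% mitochondrial UMIs and 26 at 400 genes or more per barcode. Neuron was its next best name, with 3 markers. Of the 93 genes with a UMI in these 6 classes, 70 had their highest mean level in astrocytes, 12 in monocytes, 8 in B cells, 2 in erythroid cells and 1 in microglia. Some of the astrocyte genes rested on few astrocyte UMIs, such as Ndufa4l2 with 1 and Atp5l-ps1 with 2. The monocyte genes included Cycs, Cox4i1 and the ATP synthase subunit Atp5e, and the B cell genes included the complex III core subunit Uqcrc2.

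**Figure D1:**
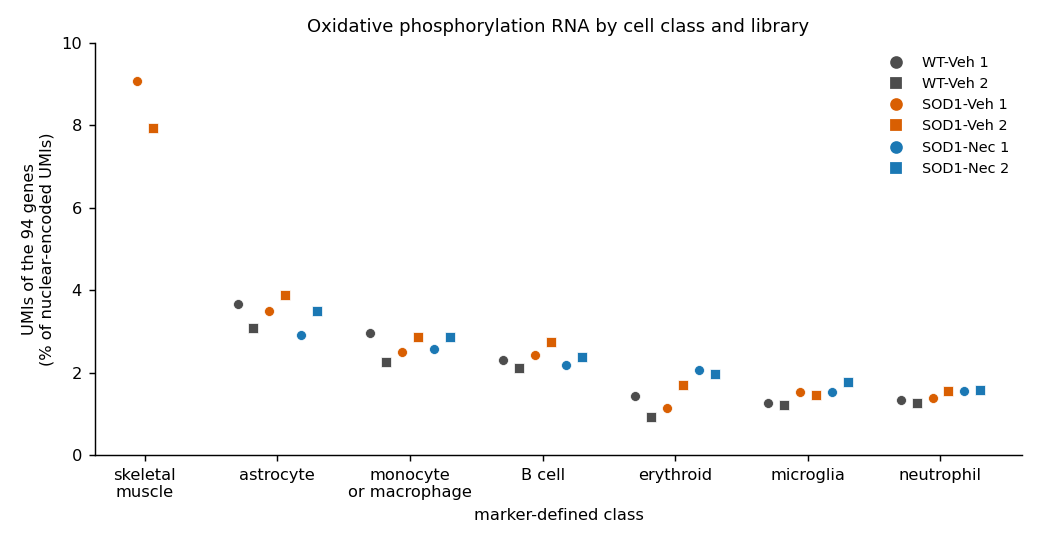
Share of UMIs from nuclear genes that came from the 94 genes (vertical axis, %), for each class (horizontal axis); each point is 1 library, coloured by group, with circles for replicate 1 and squares for replicate 2. The 2 muscle points, at 9.08% and 7.92%, stand above all others, and astrocytes lead the classes found in every library at 3.42% on average.

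The erythroid share was read beside haemoglobin, whose RNA fills much of these cells. The members took 1.43% and 0.939% for WT-Veh, 1.13% and 1.71% for SOD1-Veh and 2.07% and 1.98% for SOD1-Nec, so both treated libraries stood above the other 4. Haemoglobin genes took 52.4% and 62.0% of erythroid UMIs in WT-Veh, 55.7% and 47.4% for SOD1-Veh and 35.7% and 40.5% for SOD1-Nec. With haemoglobin left out of the total, the share was 3.10% and 2.58%, 2.67% and 3.36%, and 3.32% and 3.40%: SOD1-Veh 2 then lay between the treated libraries, and the groups overlapped.

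Across all cells, 3 of the 94 genes rose in SOD1-Veh over WT-Veh, and they were the 3 muscle isoforms of complex IV. Cox8b, the muscle form of subunit VIII, had 0 UMIs in both WT-Veh libraries, 79 and 130 in the SOD1-Veh libraries and 0 in both SOD1-Nec libraries. Cox6a2, the muscle form of subunit VIa, had 0 and 6, then 81 and 129, then 4 and 8. Cox7a1, the muscle form of subunit VIIa, had 5 and 2, then 44 and 108, then 1 and 9. For each of the 3 genes both SOD1-Veh libraries stood above the other 4, with SOD1-Veh 2, which held more muscle cells, the higher.

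By edgeR's quasi-likelihood test with Benjamini-Hochberg adjustment over 7482 genes, Cox8b had an adjusted p of 1.90e-05 and was at least 85.5-fold higher in SOD1-Veh than in WT-Veh, taking 3 counts as the limit for the WT-Veh group. Cox6a2 was higher by 5.36 ± 0.61 (log2 fold change ± SE, adjusted p = 0.000185, edgeR) and Cox7a1 by 4.68 ± 0.65 (0.00121). The background of calls in this comparison was 0.829% of all genes tested; 86 members passed the filter on low counts, and 3 were called. In SOD1-Nec over SOD1-Veh, which shares the SOD1-Veh libraries, Cox8b was at least 95.1-fold lower (adjusted p = 1.65e-05), Cox6a2 fell by 4.55 ± 0.55 on the log2 scale (0.000345) and Cox7a1 fell by 4.35 ± 0.61 (0.00141). The background there was 0.548%, and no other member was called. Between SOD1-Nec and WT-Veh the test called 0 members (background 0.0401%), with 1 at an unadjusted p under 0.05; DESeq2 made 3, 3 and 0 calls in the 3 comparisons.

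Most of their UMIs in SOD1-Veh lay in the muscle cluster. In SOD1-Veh 1 and SOD1-Veh 2 the muscle cells held 79 and 128 UMIs of Cox8b, and all other retained cells 0 and 2. They held 63 and 123 UMIs of Cox6a2 against 18 and 6 in other cells, and 41 and 102 of Cox7a1 against 3 and 6. The 10 skeletal muscle markers together took 1.13% and 2.23% of all UMIs in the SOD1-Veh libraries and at most 0.00452% in the other 4. Without the muscle cluster, Cox6a2 counted 0 and 6 UMIs in WT-Veh, 18 and 6 for SOD1-Veh and 4 and 8 for SOD1-Nec, and Cox7a1 between 1 and 9 in every library. None of the 3 then passed the filter on low counts, so none was tested. Barcodes that were not retained, for few genes, a high mitochondrial share or as doublets, also carried the muscle genes. Cox8b had 25 and 59 UMIs there in SOD1-Veh against 0 to 2 in the other libraries, whereas Cox7a1 had 39 and 61 against 25 to 34.

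**Figure D2:**
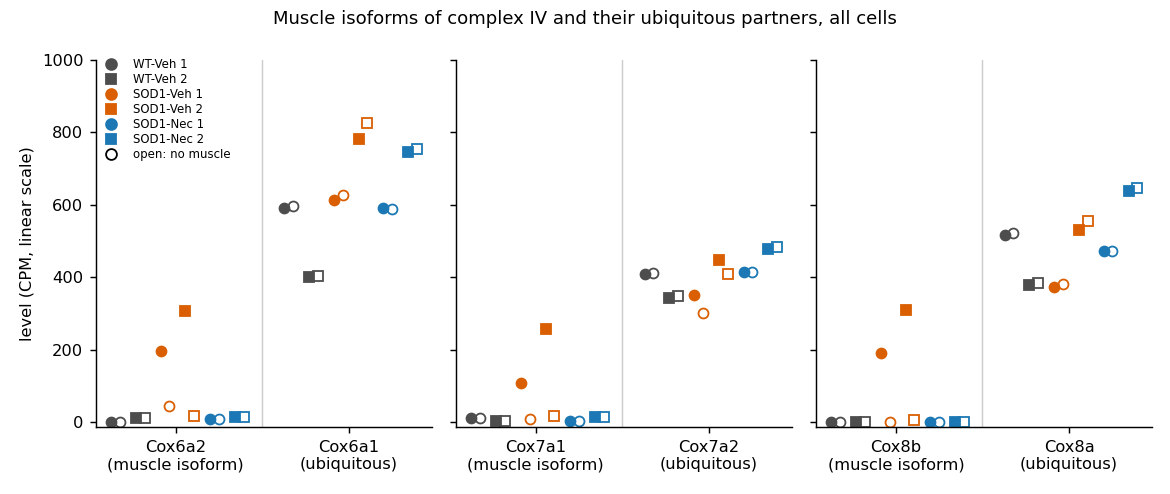
Level as counts scaled to library size (CPM, vertical axis, linear) of each muscle isoform and its ubiquitous partner (horizontal axis), 1 point per library in the order of the legend; filled points are all cells, open points leave out the muscle cluster. The filled SOD1-Veh points of Cox6a2, Cox7a1 and Cox8b stand between 107 and 309 CPM, the open ones at 45.2 CPM or less, and the partners differ far less between groups.

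Within the muscle cells the isoforms stood in place of their partners for subunits VIa and VIII and beside the partner for VIIa. As UMIs tag 3' ends and are not scaled for transcript length, shares of an isoform pair are shares of counted molecules. Cox6a2 made up 93.9% of Cox6a UMIs (95% exact binomial interval 89.7 to 96.8, counting error only), or 63 of 66 and 123 of 132 in the 2 libraries. Cox8b made up 95.4% of Cox8 UMIs (91.7 to 97.8), or 79 of 80 and 128 of 137. Cox7a1 reached 72.6% of its pair (65.8 to 78.7), 41 of 65 and 102 of 132, beside 24 and 30 UMIs of its partner Cox7a2. No Cox4i2 was counted beside 135 UMIs of Cox4i1 in these cells, which allows a share of up to 2.22%. In the c-ring family, Atp5g1 gave 80.1% of UMIs in muscle cells (37 of 46 and 92 of 115) and 45.4% in all other cells, while Atp5g3 gave 13.7% against 46.2%.

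Most members with enough muscle UMIs to compare were at a higher level in muscle cells than in the other cells of the same library, as a share of nuclear UMIs. For the 75 members with at least 10 muscle UMIs and a ratio in both libraries, the ratio was above 1 in both for 71 and above 2 in both for 61. The limit of 10 UMIs was set on the muscle cells themselves, so members with few UMIs there could not enter these counts. The counts also rest on 2 libraries and on a cluster defined from the same cells, so no test is given. After the muscle isoforms, and ranked by the lower of the 2 ratios, the members with over 50 muscle UMIs were led by Ndufc1, an accessory subunit of complex I (15.1 for SOD1-Veh 1 and 9.44 for SOD1-Veh 2), Atp5g1 (9.31 and 10.5), Ndufv3, another accessory subunit of complex I (9.05 and 9.59), and Uqcrb of complex III (11.8 and 7.96). Cytochrome c, Cycs, stood at 13.3 and 5.69. Cox4i1, the complex IV gene with the most UMIs, had ratios of 3.16 and 2.02. The 2 members with ratios below 1 in both libraries were the ubiquitous isoforms Cox6a1 (0.261 and 0.271) and Cox8a (0.142 and 0.403). These named members were chosen after their values were seen.

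**Figure D3:**
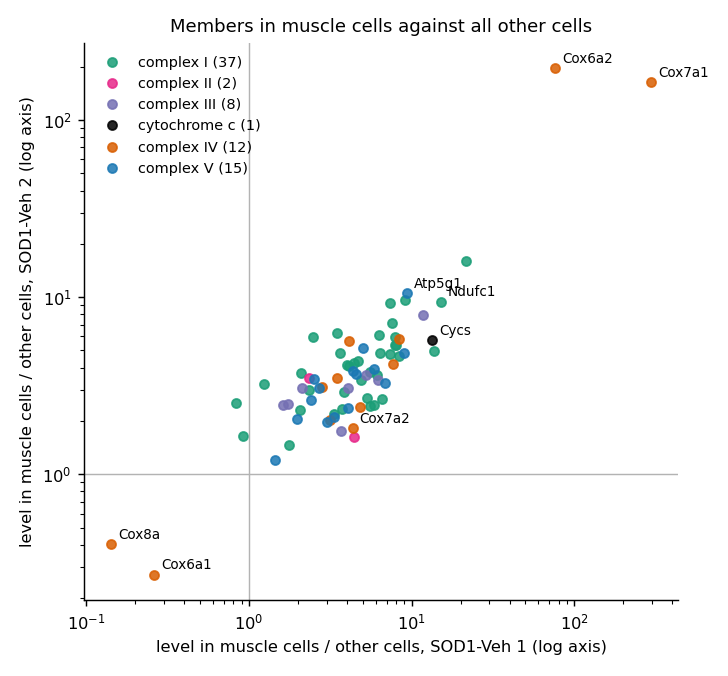
Ratio of each member's level in muscle cells to that in all other cells, in SOD1-Veh 1 (horizontal, log axis) and SOD1-Veh 2 (vertical, log axis); each point is 1 gene, coloured by complex, with the number of genes in the legend, and grey lines mark a ratio of 1. Of the 75 genes with at least 10 muscle UMIs, 71 lie above 1 on both axes, with Cox6a2 and Cox7a1 far up and Cox6a1 and Cox8a below.

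No other member passed the test in SOD1-Veh over WT-Veh, though most fold changes were positive. Over all cells, 77 of the 86 tested had a positive fold change and the median was 0.52 on the log2 scale, against 0.01 for all genes; 31 had an unadjusted p under 0.05. Libraries did not overlap between the groups for 56 members that were higher in SOD1-Veh and for 2 that were lower (Ndufaf7, a complex I assembly factor, and Uqcrc2), where the background was 20% of all genes higher and 18.8% lower. By complex the median was 0.58 for complex I, 0.32 for complex II, 0.56 for complex III, 0.47 for complex IV and 0.55 for complex V. The median of 0.52 was 0.30 without WT-Veh 2, which held 164 of the 250 neuron-like cells, 0.32 without SOD1-Veh 2 and 0.79 without WT-Veh 1.

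Among these the smallest adjusted p values belonged to Atp5l, subunit g of ATP synthase, whose level in CPM (counts per library, scaled to library size) was 48.0 and 55.9 for WT-Veh, 102 and 226 for SOD1-Veh and 63.2 and 75.0 for SOD1-Nec. SOD1-Veh 2 stood apart from SOD1-Veh 1, and both lay above WT-Veh (log2 fold change 1.65 ± 0.39, adjusted p = 0.0775, edgeR). Atp5g1 counted 188 and 108 CPM for WT-Veh, 299 and 419 for SOD1-Veh and 178 and 200 for SOD1-Nec, a difference of 1.27 ± 0.33 over WT-Veh (0.119). Cycs measured 134 and 116, then 184 and 345, then 103 and 139 CPM, a difference of 1.08 ± 0.34 (0.217). The lead accessory subunits of complex I were Ndufc1 (1.12 ± 0.31, adjusted p = 0.149) and Ndufb4 (1.11 ± 0.33, 0.196). In complexes II and III the smallest p values gave Sdhc, a membrane anchor of succinate dehydrogenase, at 57.6 and 61.9 CPM for WT-Veh against 99.5 and 107 for SOD1-Veh, and Uqcrb at 256 and 176 against 296 and 435.

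Without the muscle cluster these values were smaller. The median over 82 members was 0.17, 60 were positive, 21 were higher without overlap (background 18.4%) and 7 lower (18.6%), and 0 were called (background 0.0805%), with 4 at an unadjusted p under 0.05. Complex I went to a median of 0.17, complex II to 0.16, complex III to 0.24, complex IV to 0.11 and complex V to 0.32. Ndufc1 went from 1.12 to 0.30 ± 0.29 and Cycs from 1.08 to 0.48 ± 0.35. Muscle cells held 41.1% of retained Ndufc1 UMIs in SOD1-Veh 1 and 49.6% for SOD1-Veh 2. Atp5l kept a difference of 1.33 ± 0.38 (adjusted p = 0.249, edgeR), at 48.5 and 56.5 CPM for WT-Veh against 88.0 and 176 for SOD1-Veh. The share of nuclear UMIs from all 94 genes was 1.84% and 1.5% for WT-Veh and 2.14% and 2.62% in SOD1-Veh over all cells. Without the cluster the SOD1-Veh values became 1.82% and 2.07%, so the groups overlapped: SOD1-Veh 1 lay below WT-Veh 1. Without the muscle and neuron clusters together the median was 0.11. Fewer cells of a type and less RNA per cell cannot be told apart in such sums over cells.

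**Figure D4:**
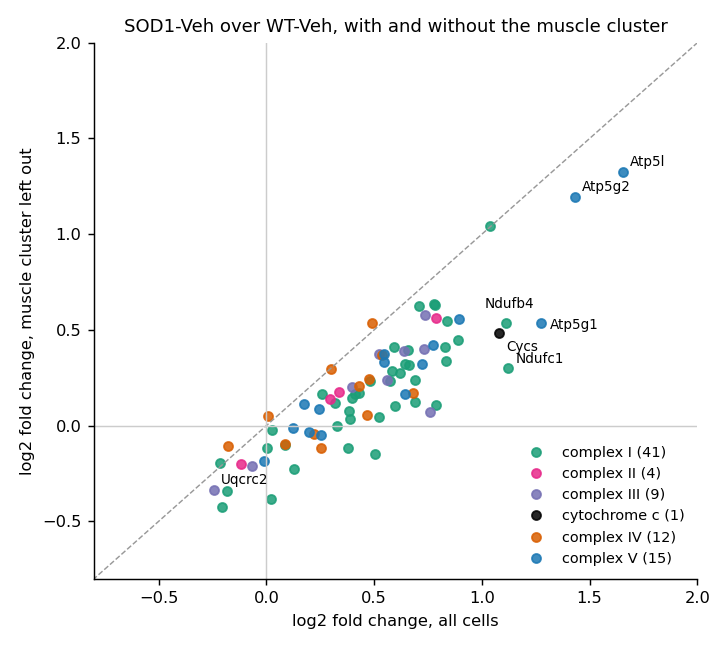
Log2 fold change of SOD1-Veh over WT-Veh for the 82 members tested in both fits, over all cells (horizontal axis) and with the muscle cluster left out (vertical axis); points are genes coloured by complex, and the dashed line marks equal values. 77 of the 82 points lie under the line, with the median at 0.17 without the cluster.

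Necrostatin-1s against vehicle in SOD1-G93A cords was a comparison that shares the SOD1-Veh libraries with the last. Over all cells 16 of 86 members were positive, the median was -0.28, and 42 were lower without overlap (background 20.6%) against 7 higher (20%). The median was -0.05 without SOD1-Veh 2, which held 47 of the 63 muscle cells, and -0.46 without SOD1-Veh 1. Atp5l (-1.24 ± 0.37, adjusted p = 0.334, edgeR), Cycs (-1.12 ± 0.34, 0.334) and Ndufb4 (-1.06 ± 0.33, 0.358) followed the muscle isoforms. Without the muscle cluster the median was 0.00, 41 of 82 members were positive, 15 were higher (19.4%) and 9 lower (19.6%), and 0 were called (background 0%), with 2 at an unadjusted p under 0.05. The Uqcrb difference then changed sign, from -0.54 over all cells to 0.14.

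Between SOD1-Nec and WT-Veh, neither of which held muscle cells, 68 of 86 members were positive over all cells with a median of 0.29, and 38 were higher without overlap (background 19.1%) against 5 lower (19.9%). The lowest p belonged to Atp5e, the epsilon subunit of ATP synthase, at 392 and 317 CPM for WT-Veh and 490 and 618 for SOD1-Nec (0.64 ± 0.28, adjusted p = 0.560, edgeR). Uqcrh, the hinge protein of complex III, measured 354 and 216 CPM for WT-Veh and 367 and 495 for SOD1-Nec (0.60 ± 0.31, adjusted p = 0.603). Its groups did not overlap, but WT-Veh 2 stood well under the other 3 libraries. The median over members was 0.13 without WT-Veh 2, 0.19 without SOD1-Nec 2 and 0.47 without WT-Veh 1, and with barcodes of up to 40% mitochondrial UMIs it was 0.03.

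In microglia, the resident macrophages of the cord, no member was called in any comparison, while their summed share was higher in SOD1-G93A cords. The share of nuclear UMIs from the 94 genes was 1.28% and 1.22% for WT-Veh, 1.52% and 1.45% for SOD1-Veh and 1.54% and 1.79% for SOD1-Nec. All 4 SOD1-G93A libraries lay above both WT-Veh libraries, and the SOD1-Nec libraries lay above the SOD1-Veh libraries by a small margin. As the groups did not overlap, the same order within replicate 1 and within replicate 2 follows from this and adds no further support. Microglia came to 78 to 170 cells per library, and 58 of the 94 genes passed the filter on low counts. The class joined 2 clusters: cluster 0, led by the chemokines Ccl3 and Ccl4, and cluster 10, led by Lpl, Ly86 and Trem2. Cluster 10 held 10.4% and 15.4% of the class for WT-Veh, 34.0% and 19.2% for SOD1-Veh and 14.5% and 15.9% for SOD1-Nec, and cluster 0 held most cells in every library. The members took a higher share of nuclear UMIs in cluster 10 (1.84% to 2.40% over vehicle libraries, 2.21% and 2.41% for SOD1-Nec) than in cluster 0, which is a description of clusters made from the same cells. Within cluster 0 alone the share was 1.23% and 1.17% for WT-Veh, 1.35% and 1.36% for SOD1-Veh and 1.45% and 1.71% for SOD1-Nec, in the order of the whole class.

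Complex IV carried 0.337% and 0.349% of nuclear UMIs of microglia in WT-Veh, 0.401% and 0.391% for SOD1-Veh and 0.442% and 0.542% for SOD1-Nec. On the same scale complex V carried 0.234% and 0.255%, then 0.325% and 0.292%, then 0.347% and 0.366%, and in both complexes the 3 groups did not overlap. Complex I stood at 0.499% and 0.428% for WT-Veh, 0.564% and 0.550% for SOD1-Veh and 0.542% and 0.622% for SOD1-Nec, where the SOD1-Veh and SOD1-Nec libraries overlapped. Complex II, 28 to 38 UMIs in the vehicle libraries and 24 and 36 for SOD1-Nec, did not follow this order. Its share was 0.0411% ± 0.0051 for WT-Veh, 0.0407% ± 0.0020 for SOD1-Veh and 0.0325% ± 0.0023 for SOD1-Nec (SD, n = 2 libraries). Both SOD1-Nec libraries thus lay under the vehicle libraries, on few UMIs.

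For SOD1-Nec over WT-Veh, 47 of 58 members were positive with a median of 0.41 against -0.01 for all genes, and 28 were higher without overlap (background 23.3%) against 2 lower (24.3%). The median was 0.27 without SOD1-Nec 2. The edgeR test called 0 (background 3.49%), with 13 at an unadjusted p under 0.05; DESeq2 called 0, with 2. The medians were 0.34 for complex I (26 genes), 0.34 for complex III (7), 0.50 for complex IV (11, all positive) and 0.70 for complex V (12). Ndufa12, an accessory subunit of complex I, counted 6 and 3 UMIs in WT-Veh, 12 and 15 for SOD1-Veh and 12 and 22 for SOD1-Nec. Its level was thus lowest in both WT-Veh libraries, with a difference of 1.78 ± 0.55 for SOD1-Nec (adjusted p = 0.0646, edgeR) and 1.62 ± 0.57 for SOD1-Veh (0.228). It passed the threshold for SOD1-Nec under 4 alternatives, with adjusted p values from 0.0232 to 0.0408 when doublets were kept or when WT-Veh 1 or either SOD1-Veh library was left out.

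Other members came next in that comparison. Ndufa8, an accessory subunit of complex I, counted 6 and 3 UMIs in WT-Veh, 11 and 10 for SOD1-Veh and 14 and 17 for SOD1-Nec (1.66 ± 0.58, adjusted p = 0.115). Atp5h, subunit d of the ATP synthase stalk, measured 225 and 185 CPM for WT-Veh, 412 and 282 for SOD1-Veh and 324 and 528 for SOD1-Nec (1.08 ± 0.38, 0.116). Cox8a measured 386 and 344, then 374 and 488, then 535 and 787 CPM (0.88 ± 0.32, 0.124). Both SOD1-Nec libraries lay above the other 4 for Cox8a, whereas for Atp5h SOD1-Veh 1 lay between them. Cox6a1, at 405 and 892 CPM for SOD1-Nec against 467 and 305 for WT-Veh, rested on SOD1-Nec 2, and it passed the threshold when SOD1-Nec 1 was left out (adjusted p = 0.0372, edgeR).

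For SOD1-Veh over WT-Veh in microglia, 45 of 58 members were positive, the median was 0.23 (0.12 with barcodes of up to 10% mitochondrial UMIs) and 0 were called (background 1.34%), with 5 at an unadjusted p under 0.05 by edgeR and 1 by DESeq2, which also called 0. Of the 58, 16 were higher without overlap (20%) and 6 lower (19%). Atp5g1 led with 5 and 8 UMIs in WT-Veh, 24 and 12 for SOD1-Veh and 9 and 14 for SOD1-Nec (1.49 ± 0.48 over WT-Veh, adjusted p = 0.164), before Ndufs6, an accessory subunit of complex I (1.44 ± 0.49, 0.203). Uqcrc2 went the other way, at 241 and 199 CPM for WT-Veh and 112 and 131 for SOD1-Veh (-0.85 ± 0.49, 0.576). For SOD1-Nec over SOD1-Veh, 38 of 58 were positive with a median of 0.24, 18 were higher (20%) and 6 lower (22.2%), and 0 were called (background 1.63%), with 2 at an unadjusted p under 0.05 (Cox8a and Cox6c, with adjusted p of 0.404 and 0.422 by edgeR) and 0 by DESeq2. Without SOD1-Nec 2 that median was 0.07.

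Other RNA moved with the groups in the same microglia. Haemoglobin genes made up 0.974% and 1.5% of microglial UMIs in WT-Veh, 0.287% and 0.526% for SOD1-Veh and 4.52% and 2.55% for SOD1-Nec, and all 4 haemoglobin genes tested were called in each of the 3 comparisons, lower in SOD1-Veh than WT-Veh and higher in SOD1-Nec than either. Of the 2 neuronal genes tested, Meg3 was called lower in SOD1-Veh than in WT-Veh (-4.23 ± 0.53, adjusted p = 7.15e-07, edgeR), higher in SOD1-Nec than SOD1-Veh (2.85 ± 0.61, 0.00517) and lower in SOD1-Nec than WT-Veh (-1.38 ± 0.36, 0.0199), and Snhg11 was not called; the neuronal list ran from 0.0215% to 0.112% over libraries. The skeletal muscle list took 0.0176% and 0.0280% for SOD1-Veh and at most 0.00306% elsewhere. Mitochondrial UMIs of every kind made up 4.97% and 4.57%, 5.62% and 6.80%, and 7.09% and 6.97% of microglial UMIs. The respiratory chain genes among them made up 1.51% and 1.54%, 1.62% and 1.74%, and 1.61% and 1.91%, where SOD1-Veh and SOD1-Nec overlapped. With haemoglobin left out of the total, the members' share was 1.29% and 1.24%, 1.53% and 1.46%, and 1.61% and 1.84%, in the same order. The part of the other RNA and of the mitochondrial share in the members' differences was not tested.

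**Figure D5:**
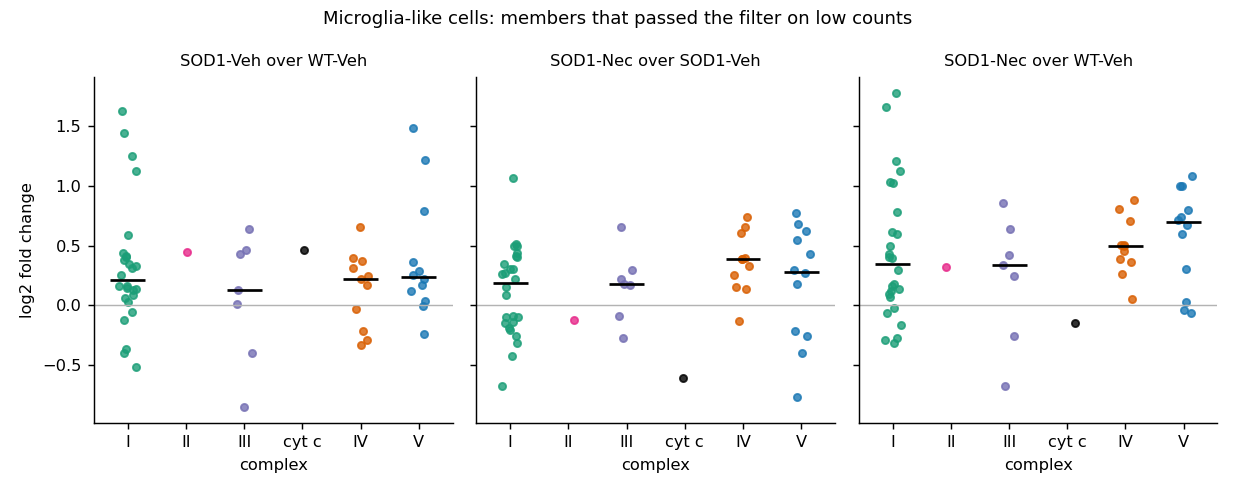
Log2 fold change (vertical axis) in microglia of the 58 members that passed the filter, by complex (horizontal axis), for the 3 comparisons; points are genes, with horizontal jitter only, and bars are medians. No gene passed the test in any panel; the bars of complexes IV and V stand at 0.50 and 0.70 for SOD1-Nec over WT-Veh.

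In the other 5 classes edgeR and DESeq2 called 0 members in every comparison; edgeR gave 0 to 3 per comparison at an unadjusted p under 0.05, DESeq2 0 to 1. In B cells, over 49 members, the median was 0.27 in SOD1-Veh over WT-Veh (background of calls 0.731%), -0.19 in SOD1-Nec over SOD1-Veh (0.731%) and 0.18 in SOD1-Nec over WT-Veh (0.626%). Non-overlapping members numbered 11 higher (background 20.6%) and 5 lower (19.4%), then 6 (20.8%) and 11 (21.9%), then 13 (20.3%) and 7 (19.8%). The first median was 0.11 without SOD1-Veh 2 and 0.13 without WT-Veh 2, and the second 0.04 without SOD1-Veh 2. Haemoglobin genes made up 0.642% and 0.514% of B cell UMIs for WT-Veh, 1.87% and 3.51% for SOD1-Veh and 4.03% and 4.78% for SOD1-Nec, and all 4 tested were called higher in both SOD1-G93A groups than in WT-Veh. Meg3, the neuronal gene tested, was called lower in SOD1-Veh than in WT-Veh (-3.60 ± 0.61, adjusted p = 0.000967, edgeR). The part of this RNA in the members' values was not tested.

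Astrocytes gave medians of -0.13, -0.13 and -0.26 over 40 members in the same 3 comparisons (backgrounds of calls 3.09%, 0.883% and 1.99%). Members without overlap were 5 higher (20.8%) and 12 lower (26.3%), then 6 (20.5%) and 8 (20.8%), then 2 (22.1%) and 16 (28.3%). These medians stand beside other RNA that differed in the same cells. Haemoglobin genes made up 6.67% and 16.2% of astrocyte UMIs for WT-Veh, 0.370% and 0.568% for SOD1-Veh and 4.96% and 3.78% for SOD1-Nec. All 4 haemoglobin genes tested were called lower in SOD1-Veh than WT-Veh and higher in SOD1-Nec than SOD1-Veh, and 2 were called lower in SOD1-Nec than WT-Veh. All 6 mitochondrially encoded genes tested were negative in both comparisons with WT-Veh (medians -0.62 and -0.62, 0 called), as were all 3 neuronal genes (-1.61 and -1.51, 0 called). As a share of nuclear UMIs the members stood at 3.67% and 3.08% for WT-Veh, 3.50% and 3.88% for SOD1-Veh and 2.93% and 3.49% for SOD1-Nec, so the SOD1-Veh mean was the higher of the vehicle groups although the median fold change was negative. The fold changes used TMM scaling factors, which the shares did not, and a larger factor lowers the scaled level. In astrocytes these factors were 0.910 and 0.721 for WT-Veh, 1.153 and 1.149 for SOD1-Veh and 0.989 and 1.163 for SOD1-Nec. With haemoglobin left out of the total the share was 3.97% and 3.75%, 3.51% and 3.91%, and 3.10% and 3.64%. The SOD1-Veh and WT-Veh libraries overlapped in both shares; the SOD1-Nec libraries lay under SOD1-Veh in the first, by 3.49% against 3.50%, and under WT-Veh in the second. The part of the other RNA was not tested. Atp5f1, the stalk subunit b, had the smallest p in SOD1-Nec over WT-Veh (-1.82 ± 0.68, adjusted p = 0.176, edgeR). It had 68 astrocyte UMIs over all libraries, and its lowest library level was 0.

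Erythroid cells gave medians of 0.01, 0.19 and 0.24 over 61 members (backgrounds 0.0858%, 0.343% and 0.772%). Members without overlap were 9 higher (18.2%) and 8 lower (16.4%), then 22 (23%) and 8 (23.2%), then 26 (26.1%) and 6 (20.2%). Ndufb7, an accessory subunit of complex I, had the smallest p in SOD1-Nec over WT-Veh (1.20 ± 0.37, adjusted p = 0.141, edgeR).

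Monocytes gave -0.02, 0.13 and 0.12 over 57 members (backgrounds 0.674%, 0.867% and 0.0963%), with 12 higher (16.4%) and 6 lower (17.9%), 9 (19.8%) and 9 (20.8%), and 12 (19.7%) and 8 (18.9%). In these monocytes all 4 haemoglobin genes tested were called lower in SOD1-Veh than WT-Veh (median -2.51) and higher in SOD1-Nec than SOD1-Veh (2.85), and Meg3 was called lower in SOD1-Veh than WT-Veh, their part untested; in erythroid cells and neutrophils no haemoglobin gene was called. Neutrophils gave 0.15, 0.17 and 0.24 over 40 members (0.115%, 0% and 0.115%), with 9 higher (17.3%) and 6 lower (17.5%), 13 (23.8%) and 2 (22%), and 13 (21.5%) and 0 (21.5%).

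Whether microglia changed unlike the other classes was tested directly, over 73 members and 3080 genes. No member was called in the 3 comparisons (backgrounds 0.0325%, 0% and 0.0974%), with 3, 2 and 4 at an unadjusted p under 0.05 by edgeR. The smallest p for SOD1-Nec over WT-Veh were those of Sdha, the flavoprotein of succinate dehydrogenase (-3.02 ± 0.92, adjusted p = 0.320), and Ndufa12 (2.13 ± 0.69, 0.357). Sdha counted 14 and 9 microglial UMIs in WT-Veh, 7 and 3 for SOD1-Veh and 0 and 3 for SOD1-Nec, so both SOD1-Nec libraries lay at or under the lower vehicle library by UMIs.

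Genes that work beside the complexes were counted from lists chosen by function. Over all cells in SOD1-Veh over WT-Veh, 0 of 16 genes of the citrate cycle, 0 of 15 tested assembly factors of complexes III to V, 0 of 10 mitochondrial carriers, 0 of 5 inhibitors and uncouplers and 0 of 4 nuclear regulators were called (background 0.829%); the number at an unadjusted p under 0.05 was 1, 3, 1, 1 and 0. The lowest p was that of Slc25a4, the ADP/ATP carrier form of muscle and heart (1.04 ± 0.30, adjusted p = 0.170, edgeR). The medians were 0.32 for the citrate cycle, 0.25 for assembly factors, 0.09 for carriers, 0.34 for inhibitors and uncouplers and -0.17 for regulators. Without the muscle cluster edgeR called 0 of them (background 0.0805%), with 0 at an unadjusted p under 0.05, and the medians were 0.15, 0.14, -0.08 and 0.29 for the first 4 lists and -0.11 for 5 tested regulators. Slc25a4 then stood at -0.014 ± 0.27. The 8 tested mitochondrially encoded genes had a median of 0.02 over all cells and -0.18 without the muscle cluster, and in microglia 7 of 7 were positive for SOD1-Nec over WT-Veh with a median of 0.21 and none called (background 3.49%); mt-Nd5, a core subunit of complex I, led (0.57 ± 0.25, adjusted p = 0.220).

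Tissue isoforms outside muscle cells were few. Cox6b2, the testis form of subunit VIb, had 93 UMIs in all, of which 64 lay in erythroid cells, where it made up 21.8% of Cox6b UMIs (17.3 to 27.0, exact binomial, counting error only). By library its erythroid count was 22 and 1 for WT-Veh, 3 and 7 for SOD1-Veh and 13 and 18 for SOD1-Nec, so the 2 WT-Veh libraries spanned the range. In microglia it was 1 of 208 Cox6b UMIs, or 0.481%, and in muscle cells 0 of 83, which allows up to 3.61%. Cox6a2 had 42 UMIs outside muscle cells: 18 in the unnamed cluster, 15 in microglia, 8 in B cells and 1 in oligodendrocytes, and 0 in erythroid cells, monocytes, neutrophils and astrocytes. Its microglial UMIs were 0 and 0 for WT-Veh, 10 and 2 for SOD1-Veh and 1 and 2 for SOD1-Nec, while Cox8b and Cox7a1 had 0 UMIs in microglia of all 6 libraries. Cox6a2 did not pass the filter in microglia and was not tested there.

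The 8 members that did not pass the filter over all cells had 3 to 45 UMIs each: the assembly factors Ndufaf1, Ndufaf5 and Ndufaf6, Ndufa4l2, Atp5s, Atp5l-ps1, the testis isoform Cox7b2 and Cox4i2, the isoform of lung and low oxygen. Of the 6 UMIs of Ndufa4l2, 4 lay in endothelial cells, as did 2 of the 3 of Cox4i2; no difference between groups could be measured at this depth.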

How the data were processed

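Single cells of mouse spinal cord were profiled after Accutase digestion, myelin removal and a density gradient for live cells, per the labels' protocols. The authors deposited 1 table of UMI counts per library, not normalized, on genome build mm9 per the submitters' processing notes; the aligner is not stated in the labels used. Labels name 2 libraries per group. All replicate 1 tables list the same 18169 genes and all replicate 2 tables the same 18650, with 17042 in common. The reason was not tested.

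Barcodes with at least 200 genes and at most 20% mitochondrially encoded UMIs were kept, Scrublet marked doublets (0.863%), and cells were scaled to 10000 and clustered (scanpy 1.11.5, leidenalg 0.10.2; 2000 variable genes, 5 of them members, 30 components, 15 neighbours, resolution 1). Clusters were named from marker lists with at least 3 markers. Counts were summed per library and class (classes with at least 20 cells in each library). They were tested over all genes with edgeR 4.0.16 quasi-likelihood F tests (R 4.3.3, TMM, filterByExpr, group only, 6 libraries, default prior count). Adjustment was by Benjamini-Hochberg, with a threshold of 0.05. The SE given with an edgeR fold change was calculated back from the test. It is the absolute log2 fold change divided by the square root of the F statistic, and so is approximate. A prior count of 2 entered only the log values used to check whether replicate numbers pair the libraries. CPM are counts scaled to the TMM-adjusted library sum of the genes that passed the filter. In WT-Veh 1 that sum was 62350 of 82417 UMIs in microglia and 532529 of 556449 over all cells. Thus CPM in microglia and CPM over all cells are on different scales. Exact binomial intervals (95%, scipy 1.17.1) and limits of 3 counts cover counting error only. The smallest exact permutation p for 2 against 2 libraries is 0.333, so single shares were not tested. On simulated counts the all-cell fit (7482 genes) recovered 8% of genes changed by a log2 size of 1 and 68% of those changed by 2; the microglia fit (1719 genes) recovered 42% and 84%.

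Members named are those called, the 2 per complex with the smallest p per comparison in all cells and microglia, the member of each complex with the most UMIs, and the tissue isoforms with their partners; others were named after their values were seen. The members, lists and markers were chosen with earlier results of these data known. Alternatives covered normalization, filters, cell limits, clustering, doublets, DESeq2 1.42.0, a replicate block, and each library, the muscle cluster or the neurons left out.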

Additional observations from a re-analysis of the deposited data

How the results depend on the processing

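The all-cell counts of called members, 3 for SOD1-Veh over WT-Veh and 3 for SOD1-Nec over SOD1-Veh, were both 0 without the muscle cluster and 0 without the muscle and neuron clusters together, the latter chosen after seeing the data. Leaving out 1 library at a time gave 3 to 4 for SOD1-Veh over WT-Veh, with Atp5l called without SOD1-Nec 1 or SOD1-Veh 1 and Atp5g1 without WT-Veh 1. For microglia in SOD1-Nec over WT-Veh the count was 1 with doublets kept and 0 to 1 over libraries left out; for the other classes it was 0 to 1, reached without SOD1-Nec 2. Differences between replicate 1 and replicate 2 correlated weakly between groups (-0.18, -0.26 and 0.17 over all cells). Cell makeup also differed between libraries of a group and enters these values, so they cannot exclude pairing by replicate number. The replicate block left the counts at 3, 3 and 0 over all cells and 0 in microglia and the other classes.

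Of 1108 alternative values for single members, 1088 kept direction and side of the threshold, 8 newly passed it and 12 changed sign. These counts cover only settings in which a member was fitted. Leaving out the muscle cluster gave no value for Cox6a2, Cox7a1 and Cox8b, so the loss of their calls is not among them. Cycs in SOD1-Nec over WT-Veh became 0.010 with no filter, 0.17 without SOD1-Nec 1 and 0.10 without WT-Veh 1 over all cells, and 0.27 without SOD1-Nec 2 and 0.60 without WT-Veh 2 in microglia. Sdhb in microglia, SOD1-Nec over SOD1-Veh, became 0.05 without SOD1-Nec 1 and 0.27 without SOD1-Veh 2, and Uqcr11 -0.032 at 400 genes or more per barcode. Sdhc over all cells, SOD1-Nec over WT-Veh, became -0.21 with up to 40% mitochondrial UMIs. Uqcrb over all cells became 0.14 without the muscle cluster and 0.15 without muscle and neurons in SOD1-Nec over SOD1-Veh, and -0.053 without both in SOD1-Veh over WT-Veh. With single libraries left out, the Cycs values ran from -0.29 to 0.17 over all cells and from -0.57 to 0.60 in microglia, and the Sdhb values from -0.50 to 0.27. The cause was not tested. Astrocytes did not reach 20 cells in every library under some settings, which gave no value for them there. The median over members in SOD1-Veh over WT-Veh ranged over the alternatives from -0.26 to 0.22 in erythroid cells, -0.21 to 0.36 in monocytes, -0.11 to 0.17 in neutrophils and -0.17 to 0.07 in astrocytes, so its sign was not stable there. In SOD1-Nec over SOD1-Veh it ranged from -0.46 to 0.015 over all cells, -0.28 to 0.04 in B cells, -0.08 to 0.29 in monocytes and -0.0071 to 0.35 in erythroid cells, and in SOD1-Nec over WT-Veh from -0.11 to 0.47 in monocytes, likewise changing sign. In microglia its sign held in all 3 comparisons.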
